A study of Mus musculus with 9 samples.

Results

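The 10 genes described here belong to the antioxidant pathway run by the transcription factor NRF2 and were followed across mouse liver with and without liver tumorigenesis. They are Nfe2l2, which encodes NRF2, Keap1, which encodes its repressor, and 8 genes that NRF2 is known to switch on, namely Nqo1, Gclc, Gclm, Hmox1, Srxn1, Txnrd1, Slc7a11 and Gsr. They were picked by gene symbol as known members of the pathway, with earlier results of these data known, and all 10 of 10 were found among the 16755 genes of the deposited table. RNA sequencing was performed on polyadenylated RNA of 9 samples in 3 groups of 3 C57BL/6 mice. Scd2f/f mice carry loxP sites in Scd2, the gene of stearoyl-CoA desaturase 2, and Scd2f/f;CC mice carry in addition a Col1a1-Cre transgene, whose Col1a1 promoter is active in collagen-producing cells such as hepatic stellate cells (HSC) and portal fibroblasts. Mice of both genotypes received the carcinogen diethylnitrosamine (DEN) at 10 mg per kg at an age of 2 weeks and, from 6 weeks, a Western alcohol diet (WAD) for 4 months by the sample labels. Their tumour-adjacent liver (TAL) was analysed, tissue that can hold microscopic tumours. The third group was liver of untreated Scd2f/f mice, called control liver below, whose age the labels do not give. Titles and sample characteristics call these mice normal or untreated, but the treatment text attached to their samples repeats that of DEN and WAD, and every ratio to control liver rests on the former. All 3 groups share the floxed Scd2 alleles, and untreated liver with Col1a1-Cre was not analysed here, so an effect of the transgene cannot be told apart from an effect that needs DEN and WAD.

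NRF2 is controlled mainly as a protein. KEAP1 holds it for ubiquitination and breakdown, and when oxidants or electrophiles modify KEAP1, NRF2 builds up, pairs with a small MAF protein and binds antioxidant response elements near its target genes. In the liver these targets make glutathione, recycle thioredoxin and glutathione, reduce quinones and break down haem, so that the mRNA levels of the targets, more than that of Nfe2l2, are the usual readout of the pathway.

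The values below are the authors' group means, each a mean over 3 mice in normalized read counts scaled to the upper quartile. They are not divided by gene length, so a level is compared only between groups for the same gene. Where 3 means are given without group names, their order is control liver, Scd2f/f TAL, Scd2f/f;CC TAL. The table gives each group's level as a single mean, with no value per mouse. The authors' own p-values stand beside these means but were not used, so no test was run here and no difference below was set against the spread between mice. The authors' means of all genes added up to 820581, 658322 and 739723 in control liver, Scd2f/f TAL and Scd2f/f;CC TAL, and the depth of the libraries is unknown. The targeted gene Scd2 had group means of 2.46, 6.47 and 1.87 in control liver, Scd2f/f TAL and Scd2f/f;CC TAL, so the lowest of the 3 was in the mice that carry Col1a1-Cre. The 6 hepatocyte markers examined had log2 ratios between -0.71 and 0.02 for Scd2f/f TAL against control liver, and albumin (Alb) had means of 21300, 20900 and 22700 in control liver, Scd2f/f TAL and Scd2f/f;CC TAL, so all 3 groups carried the markers of the labelled tissue.

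Promoters are shown first because most of the 10 genes are known targets of one factor that binds one kind of DNA element. The core of the antioxidant response element was searched as TGACNNNGC on both strands in RefSeq promoter windows of GRCm38.p6, each with 250 bases before and 50 bases after a transcription start. Windows were at hand for 7 of the 10 members. The core was present in windows of 4 of these 7 genes, against 14% of 27025 genes and 12.4% of 32851 windows overall. Keap1, Nqo1 and Slc7a11 had no match in their windows, which says only that these letters were not in these 300 bases. The same core followed by 1 more base, A, was found in 1 of the 7 members, Txnrd1, which has 3 windows. It was found in 3.45% of the 27025 genes and in 3.04% of all windows. The 4 windows with a match are printed in lower case from 5′ to 3′ in the direction of the gene, with the core in capitals. On the strand printed, the core reads TGACNNNGC in Nfe2l2 and in its reverse complement GCNNNGTCA in the other 3 genes.
Nfe2l2, chr2:75704664-75704913, minus strand: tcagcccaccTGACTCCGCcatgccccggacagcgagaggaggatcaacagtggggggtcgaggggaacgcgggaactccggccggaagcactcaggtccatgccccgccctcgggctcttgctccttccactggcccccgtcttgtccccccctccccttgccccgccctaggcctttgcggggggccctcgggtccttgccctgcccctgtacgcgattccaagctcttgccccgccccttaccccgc
Gclm, chr3:122245307-122245556, plus strand: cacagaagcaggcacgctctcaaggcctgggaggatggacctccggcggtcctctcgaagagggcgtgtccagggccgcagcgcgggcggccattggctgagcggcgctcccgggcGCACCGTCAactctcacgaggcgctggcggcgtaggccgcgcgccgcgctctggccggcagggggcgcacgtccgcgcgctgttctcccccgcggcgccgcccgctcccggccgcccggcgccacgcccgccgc
Txnrd1, chr10:82858956-82859205, plus strand: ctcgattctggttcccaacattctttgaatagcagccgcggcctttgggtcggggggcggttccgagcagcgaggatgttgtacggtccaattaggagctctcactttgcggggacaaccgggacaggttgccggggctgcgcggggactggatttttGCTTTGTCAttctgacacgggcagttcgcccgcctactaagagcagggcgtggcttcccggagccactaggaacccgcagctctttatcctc
Srxn1, chr2:152105542-152105570, plus strand: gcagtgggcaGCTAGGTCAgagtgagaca
The core began 240 bases before the start in Nfe2l2, where GENCODE M21 places an exon of the neighbouring gene E030042O20Rik. In Gclm it began 134 bases before the start, outside any annotated gene. In Txnrd1 it began 92 bases before the second of 3 annotated starts and lay inside the Txnrd1 locus but in no exon. In Srxn1 it lay behind the start, at base 29 counted from the RefSeq start and within the UTR annotated by GENCODE, so only the match and 10 bases on each side are given. All these positions count from RefSeq starts, which for Nfe2l2 and Srxn1 differ from the GENCODE starts of the loci given below. These matches are descriptions of sequence, and no binding was measured.

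The first comparison asked how the pathway in liver after DEN and WAD differed from that in untreated liver, both in Scd2f/f mice. Of the 10 genes, 9 had a higher group mean in Scd2f/f TAL than in control liver and 1 had a lower one, where 53.7% of all 16755 genes were higher by any amount and 45.8% lower. Hmox1 and Slc7a11 were at least 2-fold higher, as were 9.37% of all genes, and Srxn1 was at least 2-fold lower, as were 4.69% of all genes. The other 7 stayed within 2-fold, and the median log2 ratio of the 10 genes was 0.37, beside 0.04 for all genes. The targets farthest from their control liver means thus lay on opposite sides of them, a haem-degrading enzyme and a cystine transporter with higher means and a peroxiredoxin-repair enzyme with a lower one. The upper-quartile scaling bears on these values. Scaling the groups to the same total raised the log2 ratio of every gene by 0.32. The median of all genes averaging 1 or more over the 3 groups (expressed genes below) rose by as much. Under such a shift the 9 higher genes could not turn lower, and the median of the 10 became 0.69.

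**Figure D1:**
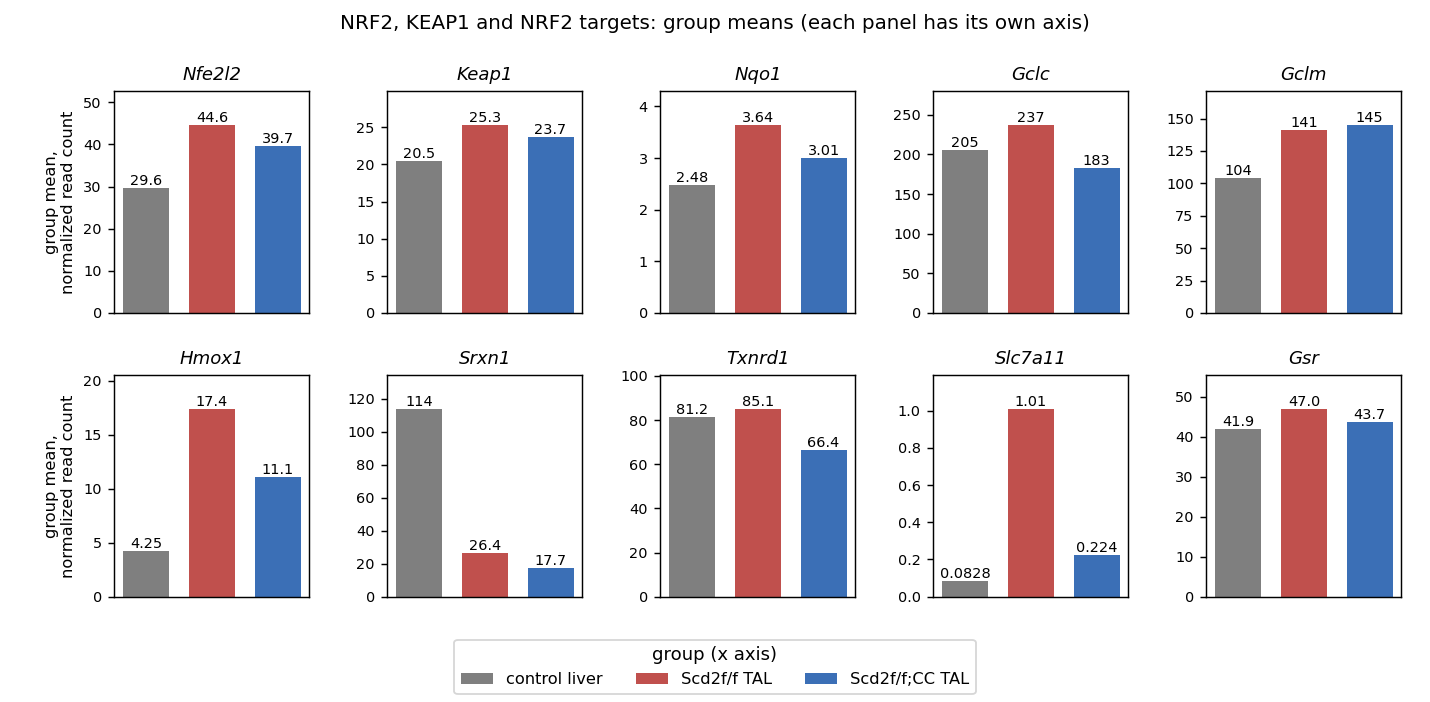
Group means in normalized read counts (y axis, from 0, its own scale in each panel) of the 10 genes in control liver, Scd2f/f TAL and Scd2f/f;CC TAL, each bar being the authors' mean of 3 mice with no error available. Most panels show the highest bar in Scd2f/f TAL, while Srxn1 stands highest in control liver at 114 and Gclm differs little between the TAL groups, at 141 and 145.

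The second comparison asked how these genes differed after DEN and WAD between mice with Scd2 ablation in Col1a1-expressing cells and mice without it. Of the 10 genes, 9 had a lower group mean in Scd2f/f;CC TAL than in Scd2f/f TAL, where 49.6% of all genes were lower by any amount and 49.5% higher. Slc7a11 was at least 2-fold lower, as were 4.07% of all genes, and no member was at least 2-fold higher, as were 1.82% of all genes. The median log2 ratio of the 10 genes was -0.32, beside 0.00 for all genes. Gclm was the exception with a log2 ratio of 0.04. Scaling groups to the same total moved the log2 ratio of every gene by -0.17, which turned the sign of Gclm. All 10 genes were then lower with a median of -0.48, but the 9 already lower could not have turned. Since the Scd2f/f TAL group enters both comparisons, a high value in it makes a gene higher in the former and lower in the latter, and the directions in the 2 comparisons are not independent. Set directly against control liver, Scd2f/f;CC TAL had 7 genes higher and 3 lower (Gclc, Srxn1 and Txnrd1), where 54.5% of all genes were higher and 45% lower. In that comparison Hmox1 and Slc7a11 were at least 2-fold higher, as were 6.41% of all genes, and Srxn1 was at least 2-fold lower, as were 4.64% of all genes.

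**Figure D2:**
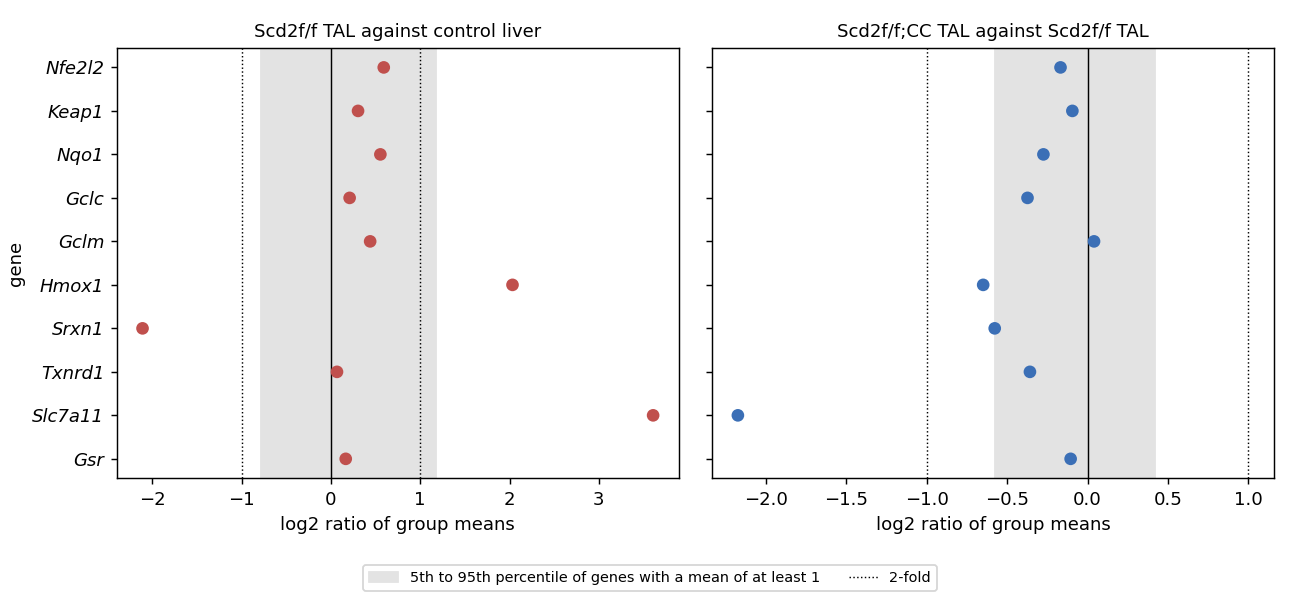
Log2 ratio of group means (x axis) for each of the 10 genes (y axis) in Scd2f/f TAL against control liver and between the TAL groups (Scd2f/f;CC against Scd2f/f), with the 5th to 95th percentile of expressed genes shaded and 2-fold marked by dotted lines. Hmox1, Srxn1 and Slc7a11 lie beyond 2-fold in the former, and Slc7a11 alone does in the latter.

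Among the regulators, Nfe2l2 (chr2:75675513-75704641, minus strand, GRCm38) had group means of 29.6, 44.6 and 39.7 in control liver, Scd2f/f TAL and Scd2f/f;CC TAL. Its mean was 1.51-fold that of control liver in Scd2f/f TAL, a log2 ratio of 0.59. Of the 11784 expressed genes, 21.1% had a log2 ratio of at least that size in either direction, as all such shares below are counted. Between the TAL groups the log2 ratio of Nfe2l2 was -0.17, a size that 43.1% of these genes reached. Keap1 (chr9:21229730-21239361, minus strand) is the adaptor that brings NRF2 to the CUL3 ubiquitin ligase, and its means were 20.5, 25.3 and 23.7 in control liver, Scd2f/f TAL and Scd2f/f;CC TAL. Its log2 ratios were 0.30 for Scd2f/f TAL against control liver and -0.09 between the TAL groups. Both regulators were highest in Scd2f/f TAL, and the ratio of the Nfe2l2 mean to the Keap1 mean, which no scaling of a group can move, was 1.44, 1.76 and 1.68 in the same order. Exons of Keap1 overlap those of the antisense gene Gm16754, with means of 0.475, 0.399 and 0.388, and reads of the 2 strands cannot be told apart with a library kit that does not mark strand.

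Of 12 other regulators of NRF2 examined, 10 had a higher mean in Scd2f/f TAL than in control liver and none was 2-fold apart in either direction, with a median log2 ratio of 0.29. The highest ratio was that of Sqstm1, the autophagy adaptor p62 that binds KEAP1 and is itself an NRF2 target, with means of 129, 246 and 213 in control liver, Scd2f/f TAL and Scd2f/f;CC TAL and a log2 ratio of 0.93. Lowest was Bach2, a repressor of the BACH family, with means of 6.89, 5.09 and 7.13. Against Scd2f/f TAL, 8 of the 12 were lower in Scd2f/f;CC TAL with a median of -0.04, and Bach2 had the highest log2 ratio, 0.49, and the small MAF gene Maff the lowest, -0.50.

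For quinone reduction, Nqo1 (chr8:107388225-107403206, minus strand) encodes the quinone reductase that serves as the classical readout of NRF2. Its group means were 2.48, 3.64 and 3.01 in control liver, Scd2f/f TAL and Scd2f/f;CC TAL. The log2 ratio was 0.55 for Scd2f/f TAL against control liver, a size reached by 23.1% of expressed genes, and -0.27 between the TAL groups, reached by 25.2%. Nqo1 thus lay within the bulk of genes in both comparisons. Prdm2, Pnpla2 and Arsb had the most similar log2 ratios over the 3 group means, at distances of 0.017 to 0.019 in the plane of the 2 log2 ratios, and 350 of 5454 protein-coding candidates averaging at least 10 lay within 0.25, so the pattern was a common one.

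For glutathione, Gclc (chr9:77754535-77794485, plus strand) and Gclm (chr3:122245557-122270732, plus strand) encode the catalytic and the modifier subunit of glutamate-cysteine ligase, the rate-limiting enzyme of glutathione synthesis. Gclc had means of 205, 237 and 183 in control liver, Scd2f/f TAL and Scd2f/f;CC TAL, with log2 ratios of 0.21 for Scd2f/f TAL against control liver and -0.37 between the TAL groups. The means of Gclm were 104, 141 and 145, with log2 ratios of 0.44 and 0.04. The 2 subunits therefore parted most in Scd2f/f;CC TAL, where Gclc was below its control liver mean and Gclm was at its highest. Both margins depended on the scaling. With groups scaled to the same total, Gclc was nearly at its control liver mean (log2 ratio -0.01) and Gclm was no longer at its highest. The ratio of the Gclc mean to the Gclm mean was 1.97, 1.68 and 1.26 in control liver, Scd2f/f TAL and Scd2f/f;CC TAL, and it is free of the scaling between groups. Gclm shares exonic sequence with the opposite-strand gene Gm17494, whose means were 0.383, 0.767 and 0.842, and with the processed pseudogene Gm6061 on its own strand.

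Slc7a11 (chr3:49892526-50443614, minus strand) encodes xCT, the exchanger that imports cystine for glutathione synthesis and whose loss sensitizes cells to ferroptosis. Control liver had a mean of 0.0828, Scd2f/f TAL one of 1.01 and Scd2f/f;CC TAL one of 0.224. The mean in Scd2f/f TAL was 12.2-fold that of control liver, a log2 ratio of 3.61, and that in Scd2f/f;CC TAL was 4.51-fold lower than in Scd2f/f TAL, a log2 ratio of -2.17. These were the widest ratios of the 10 genes, and they rest on the lowest levels, a mean of 0.439 over the 3 groups when the lowest mean listed for any gene in control liver was 0.0400. Among the 4971 genes with a mean under 1, 0.704% and 1.75% had log2 ratios of at least these sizes in the 2 comparisons. Adding 1 to every mean before taking ratios left Slc7a11 within 2-fold in both comparisons. A mean this low over 3 mice can rest on few reads or on 1 mouse, which the deposited group means do not show.

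Gsr (chr8:33652523-33698163, plus strand) encodes glutathione reductase, which returns oxidized glutathione to its reduced form with NADPH. Its means of 41.9, 47.0 and 43.7 in control liver, Scd2f/f TAL and Scd2f/f;CC TAL gave log2 ratios of 0.17 and -0.11, among the smallest of the 10 genes. Of 11 other genes of glutathione synthesis and use, 7 were higher in Scd2f/f TAL than in control liver with a median of 0.18 and none was 2-fold apart. All 11 were higher when groups were scaled to the same total. Gpx3, a secreted glutathione peroxidase, was highest of these with means of 1.89, 3.28 and 1.22, and Glrx, a glutaredoxin, was lowest with means of 16.2, 13.7 and 10.9. In Scd2f/f;CC TAL 8 of the 11 were lower than in Scd2f/f TAL, with a median of -0.17, and Gpx3 was the single gene beyond 2-fold with a log2 ratio of -1.43. The highest was Ggt6, of the gamma-glutamyltransferase family, at 0.47.

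In the thioredoxin branch, Srxn1 (chr2:152105516-152111376, plus strand) encodes sulfiredoxin, which repairs overoxidized peroxiredoxins. Control liver had a mean of 114, Scd2f/f TAL one of 26.4 and Scd2f/f;CC TAL one of 17.7. The mean was 4.32-fold lower in Scd2f/f TAL than in control liver, a log2 ratio of -2.11, and 1.87% of expressed genes had a ratio of that size in either direction. Between the TAL groups the log2 ratio was -0.58, and Scd2f/f;CC TAL against control liver gave -2.69, reached by 0.535% of these genes. Among the 10 genes Srxn1 alone was highest in untreated liver.

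Genes near Srxn1 and genes with a like pattern were looked up after its values had been seen. The 5 expressed genes within 300 kb, Csnk2a1, Tbc1d20, Rbck1, Trib3 and Sox12, had log2 ratios between -0.17 and 0.73 for Scd2f/f TAL against control liver, so none came near that of Srxn1. No protein-coding candidate lay within 0.25 of Srxn1 in the plane of the 2 log2 ratios. The nearest were the chromatin remodeller Chd9 with means of 173, 44.5 and 35.3, Eif4ebp3, of the translation repressor family, with means of 30.3, 5.32 and 3.19, and the retinol dehydrogenase gene Rdh11 with means of 34.9, 7.58 and 6.99 in control liver, Scd2f/f TAL and Scd2f/f;CC TAL. The 5 erythroid and haemoglobin genes were also lower in Scd2f/f TAL, with summed means of 321, 126 and 223 in the 3 groups, but unlike Srxn1 they were higher in Scd2f/f;CC TAL than in Scd2f/f TAL, or 4 of the 5 were when groups were scaled to the same total. Their part in the Srxn1 values was not tested.

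Txnrd1 (chr10:82833951-82897712, plus strand) encodes cytosolic thioredoxin reductase, the NADPH-dependent enzyme that keeps thioredoxin reduced. Its means were 81.2, 85.1 and 66.4 in control liver, Scd2f/f TAL and Scd2f/f;CC TAL. The log2 ratio for Scd2f/f TAL against control liver was 0.07, the smallest of the 10 genes, and that between the TAL groups was -0.36, a size reached by 17.4% of expressed genes. Of 11 other genes of the thioredoxin and peroxiredoxin system, 4 were higher and 7 lower in Scd2f/f TAL with a median of -0.11, and 8 were higher in Scd2f/f;CC TAL than in Scd2f/f TAL with a median of 0.02, but both medians changed sign, to 0.20 and -0.15, when groups were scaled to the same total. Txnip, the thioredoxin inhibitor, had the highest ratio to control liver and the lowest between the TAL groups, with means of 46.8, 80.2 and 56.0. Mitochondrial thioredoxin, Txn2, was lowest against control liver with means of 59.5, 40.1 and 42.4, and mitochondrial thioredoxin reductase, Txnrd2, was highest between the TAL groups with a log2 ratio of 0.30. None of the 11 was 2-fold apart in either comparison.

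For haem breakdown, Hmox1 (chr8:75093621-75100589, plus strand) encodes haem oxygenase 1, which opens the haem ring and frees iron, and which is induced by haem and by NRF2. Control liver had a mean of 4.25, Scd2f/f TAL one of 17.4 and Scd2f/f;CC TAL one of 11.1. The mean was 4.09-fold higher in Scd2f/f TAL than in control liver, a log2 ratio of 2.03, and 2.14% of expressed genes had a ratio of that size in either direction. In Scd2f/f;CC TAL it was lower than in Scd2f/f TAL, by a log2 ratio of -0.65 that 5.86% of these genes reached, and still 2.61-fold that of control liver.

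Hmox1 is known to be expressed by Kupffer cells, the resident macrophages of the liver, which clear aged red cells. All 10 macrophage and Kupffer cell markers examined had means at least 2-fold higher in Scd2f/f TAL than in control liver, beside 9.37% of all genes. The log2 ratios of the markers ran from 1.36 to 4.07 with a median of 1.88, and no marker was listed at 0 in any group. Their summed means were 107, 418 and 339 in control liver, Scd2f/f TAL and Scd2f/f;CC TAL. Between the TAL groups 9 of the 10 were lower, with log2 ratios from -1.21 to 0.01 and a median of -0.31, and all 10 were lower when groups were scaled to the same total. Hmox1, at -0.65, lay below most of these markers. Cd14 (-1.21) and Lyz2 (-0.75) were lower still and Cd68 was alike at -0.65. The rest ranged from Marco (-0.45) to the Kupffer cell marker Clec4f (0.01). The Hmox1 mean came to 3.98%, 4.17% and 3.28% of the summed marker means in control liver, Scd2f/f TAL and Scd2f/f;CC TAL, a quantity computed after the values had been seen and free of the scaling. The genes most like Hmox1 over the 3 group means were Lyz2, a marker of the same list, with means of 24.9, 107 and 63.7 at a distance of 0.12, the complement gene C1qa, which is not on the list but is known to be made by macrophages, with means of 8.14, 33.2 and 23.1 at 0.13, and the interferon-induced Gbp6 at 0.22. Within 0.25 lay 6 of 5453 candidates. In bulk tissue more cells of a type and more RNA per cell cannot be told apart, and the part of macrophage number in the Hmox1 values was not tested.

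**Figure D3:**
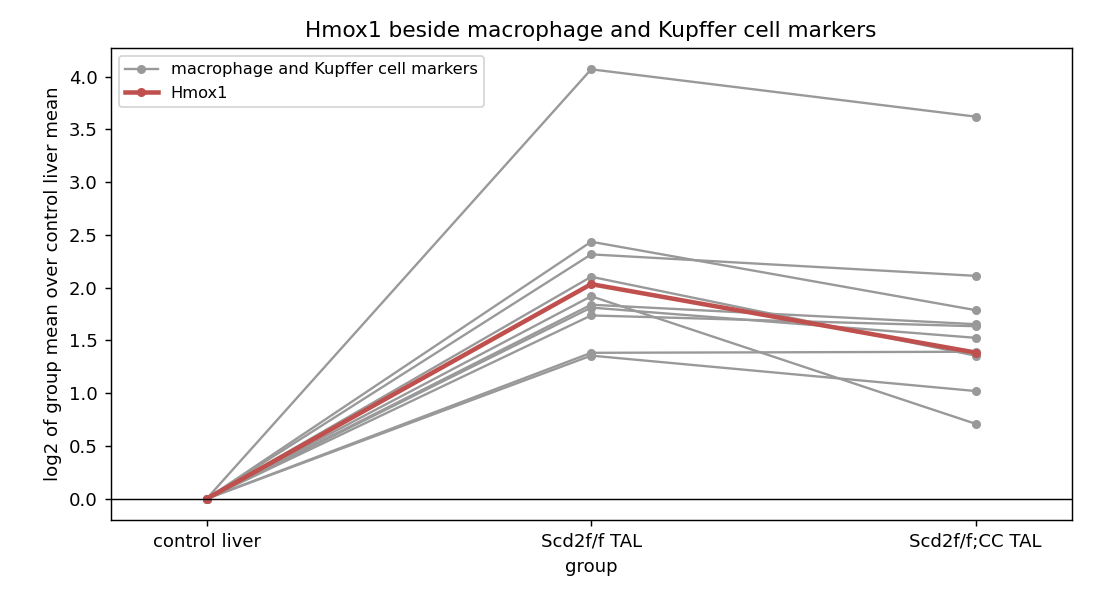
Log2 of the group mean over the control liver mean (y axis) in control liver, Scd2f/f TAL and Scd2f/f;CC TAL (x axis) for Hmox1 and 10 macrophage and Kupffer cell markers, with lines that join the authors' means of 1 gene. Hmox1, at 2.03 and 1.39, lies among the markers in both TAL groups.

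Of 7 other genes of haem and iron handling, 6 were higher in Scd2f/f TAL than in control liver with a median log2 ratio of 0.32, and 6 were lower in Scd2f/f;CC TAL than in Scd2f/f TAL with a median of -0.19. None was 2-fold apart. The iron exporter ferroportin, Slc40a1, which macrophages and hepatocytes use to release iron, had the highest ratio to control liver, 0.85, with means of 60.5, 109 and 107. Blvra, biliverdin reductase A, which acts on the product of haem oxygenase, was the one below control liver with means of 6.80, 5.86 and 6.45, and it had the highest log2 ratio between the TAL groups at 0.14. The lowest between the TAL groups was the haem transporter Slc48a1 with means of 13.8, 19.4 and 14.3.

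Markers of further cell types also differed between the groups, and their part in the values of the 10 genes was not tested. The 9 markers of HSC and portal fibroblasts, the cells in which Col1a1-Cre acts, had summed means of 58.8, 136 and 57.4 in control liver, Scd2f/f TAL and Scd2f/f;CC TAL. All 9 were lower in Scd2f/f;CC TAL than in Scd2f/f TAL, 6 of them at least 2-fold, beside 4.07% of all genes. The 5 cholangiocyte markers summed to 58.7, 53.1 and 19.1, and 4 of them were at least 2-fold lower in Scd2f/f;CC TAL than in Scd2f/f TAL, beside the same 4.07%. Endothelial markers summed to 91.2, 123 and 125 over 5 genes. The 7 T and B cell markers and the 2 neutrophil markers found were low, with sums of 1.62, 4.61 and 3.18 and of 0.565, 2.81 and 2.29.

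Of 86 genes in the wider lists, 82 were found. Of these, 58 had a higher mean in Scd2f/f TAL than in control liver, beside 53.7% of all genes, with a median of 0.24. At least 2-fold higher were 8 and at least 2-fold lower 0, beside 9.37% and 4.69% of all genes. Between the TAL groups 56 of the 82 were lower in Scd2f/f;CC TAL, beside 49.6% of all genes. Of these 56, 4 were at least 2-fold lower, and the median of the 82 was -0.18. Both the 8 genes at least 2-fold higher in Scd2f/f TAL, beside 9.37% of all genes, and the 4 at least 2-fold lower in Scd2f/f;CC TAL, beside 4.07% of all genes, made up shares near the background.

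The list with the highest median ratio to control liver was that of detoxification genes reported as NRF2-responsive. Of 31 found, 25 were higher in Scd2f/f TAL than in control liver, beside 53.7% of all genes, with a median of 0.46. At least 2-fold higher were 6, beside 9.37% of all genes. In Scd2f/f;CC TAL 24 were lower than in Scd2f/f TAL, beside 49.6% of all genes, with a median of -0.32. At least 2-fold lower were 3, beside 4.07% of all genes. These 6 and 3 genes made up most of the 8 and 4 counted over all the wider lists. Among the 6, Cbr3, Akr1b7 and Akr1b10 averaged only 0.807, 0.171 and 0.707 over the 3 groups, and Cbr3 was also among the 3. Ratios at such low levels can rest on few reads. Among the genes of this list averaging at least 1, Gsta1, a glutathione S-transferase, had the highest log2 ratio to control liver, 1.83, and the lowest between the TAL groups, -1.84, with means of 2.82, 10.0 and 2.79 in control liver, Scd2f/f TAL and Scd2f/f;CC TAL. Gsta1 in Scd2f/f;CC TAL thus had a mean near that of control liver. Its close paralogs can share reads with it, and how these were divided in counting makes its level uncertain. Osgin1, an oxidative stress-induced growth inhibitor, was likewise high in Scd2f/f TAL but not lower in Scd2f/f;CC TAL, with means of 24.1, 76.4 and 81.0. Gstm3 was at its lowest in Scd2f/f;CC TAL, with means of 28.5, 29.8 and 12.9. At the other ends of the list, Gsta3 had the lowest ratio to control liver, with means of 482, 354 and 385, and Nqo2, a quinone reductase related to Nqo1, had the highest between the TAL groups, with means of 33.9, 47.4 and 55.4. Cbr3, Akr1b7, Akr1b10, Osgin1 and Gstm3 were named after their values had been seen.

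**Figure D4:**
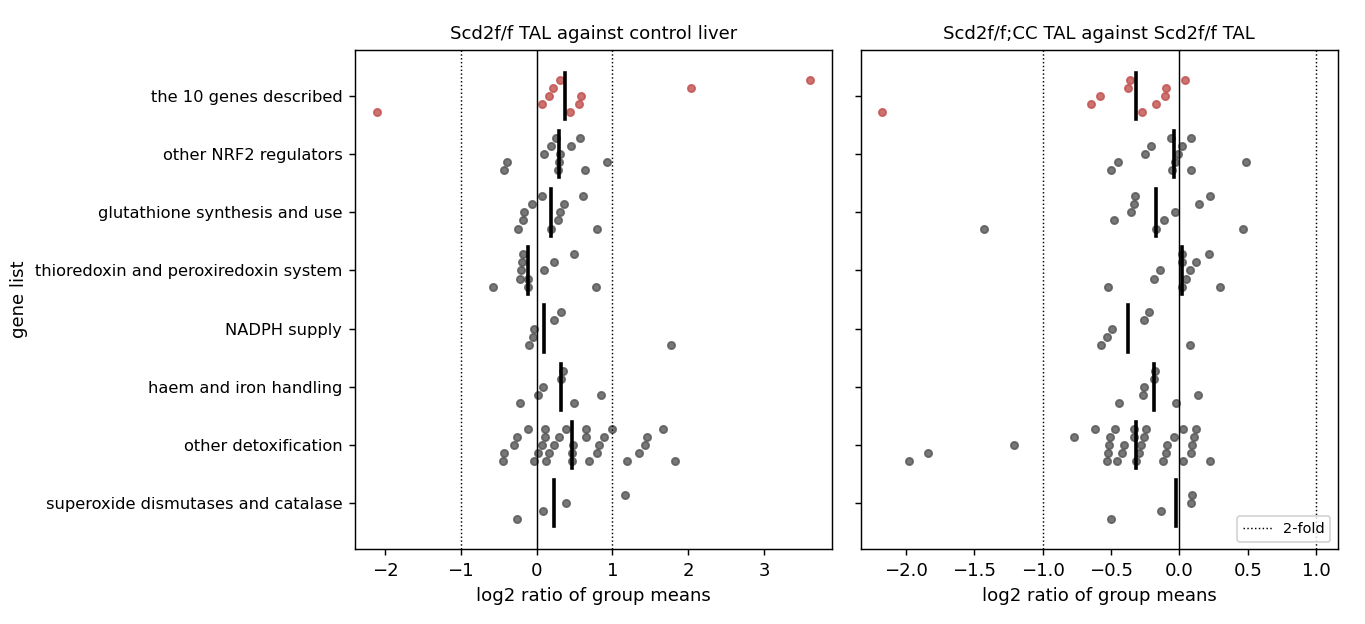
Log2 ratio of group means (x axis) of every gene found in the 10 members and in the 7 wider lists (y axis) in Scd2f/f TAL against control liver and between the TAL groups (Scd2f/f;CC against Scd2f/f), with 1 point for each gene, a bar at the list median and 2-fold marked by dotted lines. The members' medians are 0.37 and -0.32, beside 0.46 and -0.32 for the detoxification genes and -0.11 and 0.02 for the thioredoxin and peroxiredoxin list.

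NADPH, which Gsr, Txnrd1 and Nqo1 draw on, is supplied by the enzymes of the pentose phosphate pathway and a few others. Of 6 such genes, 3 were higher in Scd2f/f TAL than in control liver, and G6pdx, glucose-6-phosphate dehydrogenase, was the single one beyond 2-fold with means of 1.20, 4.08 and 2.83 and a log2 ratio of 1.77. Ablation of Scd2 went with lower means for 5 of the 6, with a median of -0.37, the lowest being Pgd, of the same pathway, with means of 15.3, 19.2 and 12.9. With groups scaled to the same total, all 6 were higher in Scd2f/f TAL than in control liver. All 6 were then also lower in Scd2f/f;CC TAL than in Scd2f/f TAL. Idh1, cytosolic isocitrate dehydrogenase, was lowest against control liver and highest between the TAL groups, with means of 202, 189 and 200. Among the 4 superoxide dismutase and catalase genes, the extracellular Sod3 was at least 2-fold higher in Scd2f/f TAL, with means of 7.30, 16.3 and 11.5, and it was also the lowest of the 4 between the TAL groups with a log2 ratio of -0.50. Sod1, the cytosolic dismutase, was lowest against control liver with means of 251, 209 and 190, and the peroxisomal catalase, Cat, was highest between the TAL groups with means of 1170, 1530 and 1630.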

How the data were processed

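The authors prepared polyadenylated RNA libraries with a TruSeq v2 kit and sequenced them on a NextSeq instrument. Per the paper's methods, Gencode M3 genes were quantified by Partek's E/M method, normalized to the upper quartile and compared with Partek Gene Specific Analysis, and the submitters' processing notes name STAR 2.6.1, Partek 6 and mm10. The deposited signal is a least-squares mean of normalized counts per group with 3 significant digits. The same table holds the authors' p-values, FDR, ratios and fold changes for 2 comparisons, and none of these was used. The labels call the tissue liver, and the study's results describe it as TAL while its sequencing methods call it non-tumour liver. The study gives a longer feeding than the labels.

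Log2 ratios of the deposited means were computed in Python 3.11.15 with NumPy 2.4.6 and pandas 2.3.3, and drawn with Matplotlib 3.10.9. The code for the fold limit and the motif search was run on simulated data with planted changes and planted motifs. That run checked the code only, not the scaling, low levels or the spread between mice. Since levels are given as group means only and the authors' test results were left unused, no test was run, and a fold of 2 was used as a description. All 10 members were named. Of each wider list, the highest and lowest log2 ratio in the 2 main comparisons named a gene, among genes averaging at least 1 over the groups, and for Nqo1 and Hmox1 the 3 protein-coding genes averaging at least 10 that lay nearest in the 2 log2 ratios. The wider lists, like the members, were chosen with earlier results of these data known. Loci are from GENCODE M21 on GRCm38, matched by symbol. All 10 starts equalled those in the table, whose stops lay 1 base further. Promoters are from RefSeq, for 7 of 10 members. Pseudocounts of 0.1 and 1, a minimum mean of 1, a fold of 1.5, centring on the median gene, scaling to the same total and a longer motif were tried. Gpx2, Ggt1, Aldh3a1 and Trim16l of the wider lists and 2 neutrophil markers were not analysed here.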

Additional observations from a re-analysis of the deposited data

How the results depend on the processing

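A pseudocount cannot turn the direction of a ratio, and centring or scaling to the same total shifts the log2 ratios of all genes alike. Only a gene with a small ratio could therefore turn. Of the 10 genes only Gclm turned, between the TAL groups when groups were scaled to the same total. That scaling moved the median log2 ratio of the 10 genes from 0.37 to 0.69 for Scd2f/f TAL against control liver, from -0.32 to -0.48 between the TAL groups and from 0.24 to 0.39 for Scd2f/f;CC TAL against control liver, and it moved the median of all genes averaging at least 1 by 0.32, -0.17 and 0.15. Directions within the wider lists moved with that scaling too. Between the TAL groups, the count lower went from 8 to 11 of the 12 other regulators and from 24 to 30 of the 31 detoxification genes. For superoxide dismutases and catalase it went from 2 to 4 of 4. Among the 10 genes, counts beyond 2-fold depended on Slc7a11. With a pseudocount of 1 or a minimum mean of 1, the count at least 2-fold higher went from 2 to 1 for Scd2f/f TAL against control liver and the count at least 2-fold lower from 1 to 0 between the TAL groups. For Scd2f/f;CC TAL against control liver the count at least 2-fold higher went from 2 to 1 with a pseudocount of 0.1, a pseudocount of 1 or a minimum mean of 1. A fold limit of 1.5 raised the count lower between the TAL groups from 1 to 2, with Hmox1 added, and the count higher in Scd2f/f TAL than in control liver from 2 to 3, with Nfe2l2 added. The longer motif cut the promoters with a match from 4 to 1. No paired analysis was possible because the means pool the mice of each group, and for the same reason leaving out single replicates was not run. Depth is unknown, which limits what the low mean of Slc7a11 can show.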
